A study of Mus musculus with 16 samples.

Results

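Agtr1a, Agt, Ace, Atp6ap2, Enpep and Anpep encode the type 1 angiotensin receptor, the precursor of all angiotensins and proteins that cut or bind members of the same pathway. They were taken by symbol, 6 genes of the 24982 entries in the count table, and all 6 were among the 13775 genes with enough counts to test. In GRCm38 (RefSeq) Agtr1a lies on chromosome 13 (30336356 to 30382867), Ace on chromosome 11 (105967948 to 105989964) and Atp6ap2 on chromosome X (12587759 to 12617051), all on the plus strand. Agt lies on chromosome 8 (124556587 to 124569706), Enpep on chromosome 3 (129269177 to 129332749) and Anpep on chromosome 7 (79821803 to 79848210), all on the minus strand. Agtr1a is a receptor, and Ace, Enpep and Anpep are peptidases. Agt and Atp6ap2 are neither angiotensin receptors nor peptidases: Agt is the substrate, and Atp6ap2 encodes the prorenin receptor, which is also an accessory subunit of the vacuolar proton pump (V-ATPase).

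Total RNA of the left ventricle was sequenced from 16 C57BL/6 mice, 1 library each. The Tln2-null group held 8 mice (4 males and 4 females), and the other group held 8 mice (4 males and 4 females) that were Tln2-null and also lacked Tln1 specifically in cardiac fibroblasts (CF), called knockout here. Tln1 and Tln2 encode talins, which couple integrins to the actin cytoskeleton. Both groups had tamoxifen injections for 5 days. After a gap of 2 weeks, every mouse was infused with angiotensin II (AngII) by osmotic pump over 8 weeks. No mice without AngII or tamoxifen, and none with intact Tln2, were analysed here, so the levels describe AngII-treated ventricles only. The sources used here do not give the promoter that drives the fibroblast deletion, the deleted exons or the ages of the mice.

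In the renin-angiotensin system, renin cuts angiotensinogen (Agt) to angiotensin I, and angiotensin-converting enzyme (Ace) trims that to angiotensin II, the ligand of the type 1 receptor (Agtr1a). Aminopeptidase A (Enpep) removes the first residue of angiotensin II, and aminopeptidase N (Anpep) trims the product further. In the heart the receptor is known to mediate hypertrophic and fibrotic responses, and Ace is known as an enzyme of the endothelial surface.

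Total counts per library ran from 11161766 to 19221673. All 8 cardiomyocyte markers were tested. The ventricular myosin light chain Myl2 stood at 2615 ± 241 CPM (counts scaled to the same library size, mean ± SD, n = 16). The atrial Myl7 stood at 0.161 ± 0.185 CPM, but of the 6 atrial markers listed 3 were tested, Nppa, Myl4 and Nr2f2. Summed atrial markers ran from 445.1 to 1922 CPM in Tln2-null and from 305.9 to 1252 CPM in knockout mice. Nppa is also among the genes listed here as known to respond to AngII, and the source of this signal was not tested. In Tln2-null mice Tln1 measured 289 ± 20.7 CPM and Tln2 66.8 ± 7.25 CPM, and in knockout mice 273.6 ± 31.3 and 67.1 ± 2.32 CPM (n = 8 each), whole-gene counts in whole tissue that check little of either deletion. In 4 of the 8 female libraries, Y-linked reads exceeded 1% of the male mean, reaching 2.88%. These were Tln2-null replicate 4 and knockout replicates 3, 5 and 7. Knockout replicate 2 was the only knockout female below that limit. In 2 libraries, Tln2-null replicate 8 and knockout replicate 8, the clock gene Arntl stood apart, at 28.4 and 27.1 CPM, while the other 14 held 3.66 to 8.44 CPM.

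The bases before the start of 4 of the genes are shown here because these genes form the most strongly opposed pair of levels across libraries for which both starts were in the table (Agt and Atp6ap2) and the pair with the highest positive correlation (Enpep and Anpep), as described further on. Each run is the 250 bases before the RefSeq start (GRCm38.p6), read 5′ to 3′ on the gene's strand. They lie at chr8:124569707-124569956 on the minus strand for Agt, chrX:12587509-12587758 on the plus strand for Atp6ap2, chr3:129332750-129332999 on the minus strand for Enpep and chr7:79848211-79848460 on the minus strand for Anpep. Capitals mark matches on either strand to any of 4 motifs. The TATA box was searched as TATAAA. For the CCAAT box its name gives the letters. The GC box was searched as GGGCGG, and the E-box as CACGTG.
Agt: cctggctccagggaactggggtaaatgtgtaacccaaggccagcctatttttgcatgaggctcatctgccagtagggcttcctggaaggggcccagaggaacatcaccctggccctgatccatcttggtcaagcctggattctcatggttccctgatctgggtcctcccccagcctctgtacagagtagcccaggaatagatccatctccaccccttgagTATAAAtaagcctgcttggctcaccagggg
Atp6ap2: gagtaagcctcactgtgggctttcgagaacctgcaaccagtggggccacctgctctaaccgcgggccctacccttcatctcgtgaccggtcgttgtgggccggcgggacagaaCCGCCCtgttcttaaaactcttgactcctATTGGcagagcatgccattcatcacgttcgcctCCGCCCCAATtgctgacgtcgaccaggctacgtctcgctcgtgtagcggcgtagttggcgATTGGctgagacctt
Enpep: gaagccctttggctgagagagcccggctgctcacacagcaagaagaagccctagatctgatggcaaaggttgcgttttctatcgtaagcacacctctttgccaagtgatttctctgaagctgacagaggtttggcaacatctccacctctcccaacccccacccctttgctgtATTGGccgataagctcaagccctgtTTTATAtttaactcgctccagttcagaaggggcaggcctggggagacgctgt
Anpep: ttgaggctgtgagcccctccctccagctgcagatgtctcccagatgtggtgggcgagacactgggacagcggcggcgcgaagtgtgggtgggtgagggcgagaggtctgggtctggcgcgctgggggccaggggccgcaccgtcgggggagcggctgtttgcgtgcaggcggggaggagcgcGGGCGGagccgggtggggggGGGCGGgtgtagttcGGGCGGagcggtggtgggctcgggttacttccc

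Agt had 1 TATA box on the printed strand, its first base 30 bases before the start, and neither a CCAAT nor a GC box. Enpep had 1 TATA match on the other strand, first base 52 before the start, and 1 CCAAT match at 77. Anpep had no TATA or CCAAT match but 3 GC boxes, at 68, 48 and 33 bases before the start, in the window richest in G and C of these 4 (72.8%). Atp6ap2 had 3 CCAAT and 2 GC box matches, and one of each shared a base. Of 32851 such windows in the table, 12.4% held a TATA box, 33.8% a CCAAT box, 32.7% a GC box and 6.0% an E-box. None of the 4 windows held an E-box. A match is a string of letters and no measurement of binding. For Anpep, on the minus strand, the GENCODE M21 annotation reaches 79861059, upstream of the RefSeq start at 79848210. Which start these hearts used was not tested. The windows were those of 5 of the 6 genes, Ace with 2 starts, and Agtr1a was not matched.

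Per length, the receptor and the converting enzyme were the most abundant of the 6 transcripts. Scaled to CPM per kb of exon (GENCODE M21 exon lengths), Ace stood at 20.6 ± 3.36, Agtr1a at 20.1 ± 3.58 and Atp6ap2 at 13.1 ± 0.997 (mean ± SD, n = 16). The precursor Agt followed at 4.85 ± 1.85, and the aminopeptidases Enpep and Anpep at 3.57 ± 0.743 and 3.39 ± 0.533 CPM per kb. The 6 thus formed a high set of 3 and a low set of 3: Atp6ap2 exceeded Agt per kb in 16 of 16 libraries, and the ranges of those neighbours did not overlap. Agtr1a exceeded Atp6ap2 in 15 of 16. The other neighbours overlapped: Ace exceeded Agtr1a in 10 of 16 libraries, Agt exceeded Enpep in 11 of 16, and Enpep exceeded Anpep in 8 of 16.

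**Figure D1:**
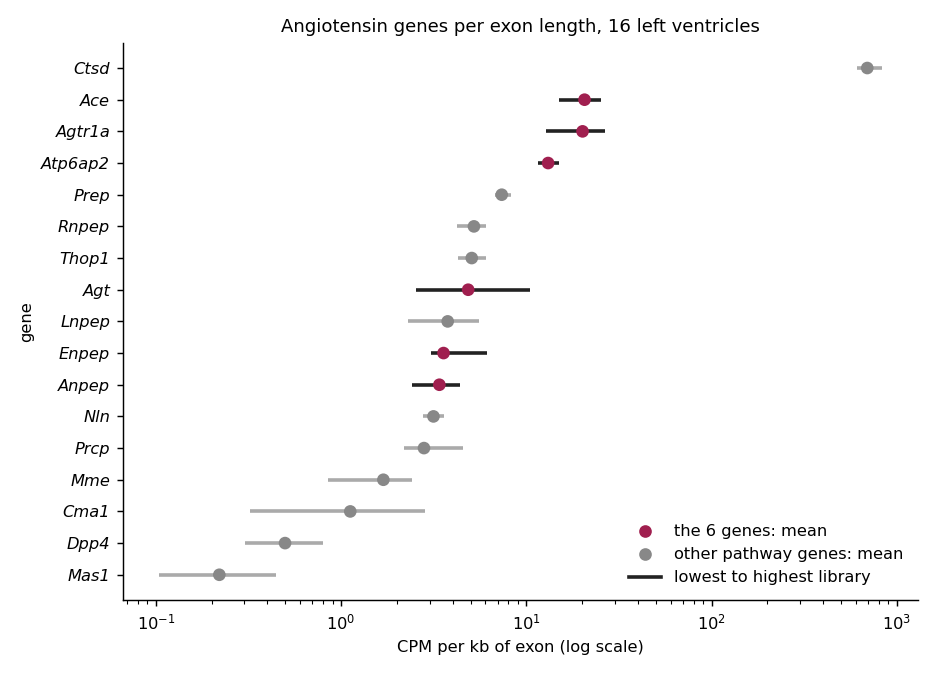
Level of each gene per kb of exon over 16 libraries, on a log axis, for the 6 genes and 11 other genes of angiotensin metabolism. Dots are means and lines run from the lowest to the highest library. Ace, Agtr1a and Atp6ap2 lie to the right of all others drawn but Ctsd (606 to 834 CPM per kb), and the lines of Agt, Enpep and Anpep overlap.

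Ctsd, the gene of the lysosomal protease cathepsin D, which can cut angiotensinogen, stood far above all 6, at 692 ± 57.4 CPM per kb of exon (n = 16). Neither renin gene had a read: Ren1, and Ren2, which C57BL/6 mice are known to lack, had 0 counts in all 16 libraries, where 3 counts would be 0.151 to 0.268 CPM, a limit that covers counting error only. The receptor genes Agtr1b and Agtr2, which encode the second type 1 and the type 2 receptor, had 6 and 9 counts in all libraries together, against 14794 for Agtr1a. Mas1, the gene of the receptor for angiotensin-(1-7), stood at 0.575 ± 0.264 CPM, and the chymase gene Cma1, a mast cell protease that can also make angiotensin II, at 1.22 ± 0.734 CPM (n = 16 each).

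The 6 genes differed in how steady they were from mouse to mouse. After the means of each genotype and sex were removed, the SD of log2 CPM was 0.496 for Agt, which is larger than in 95.3% of the 1506 genes within 0.5 log2 units of its level. For Agtr1a it was 0.258 (90.1% of similar genes lower), for Ace 0.240 (90.3%), for Enpep 0.258 (82.7%) and for Anpep 0.224 (69.7%). Atp6ap2 had the lowest value of the 6, at 0.0986, with only 13.2% of similar genes lower. The value of Enpep includes knockout replicate 8 at 28.75 CPM, where all other libraries held 14.33 to 19.37 CPM. Its SD without that library was not computed. The highest library held 4.1 times the lowest for Agt and 1.29 times for Atp6ap2. Counting error alone gives a coefficient of variation of 8% for Agt, where 38.1% was measured, and of 4.2% for Atp6ap2, where 7.6% was measured.

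The comparison of genotypes asks whether transcripts of the angiotensin pathway differ when fibroblasts of AngII-treated Tln2-null hearts also lack Tln1. None of the 6 genes passed: 0 of 6 had an adjusted p under 0.05 (edgeR quasi-likelihood test with sex as a term, Benjamini-Hochberg over 13775 genes), and over all genes the share called was 0%. None of the 6 had an unadjusted p under 0.05 either, where 5.08% of all genes did (700). DESeq2 called 0 of the 6 and 17 of all genes. The adjusted p of the 6 genes ran from 0.935 to 0.994, and the ranges of the 2 genotypes overlapped for each gene. Because the tissue is bulk ventricle, fewer cells of a type and less RNA per cell cannot be told apart.

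Agt, the precursor, ran from 5.38 over a median of 8.78 to 19.7 CPM in Tln2-null mice and from 4.79 over 8.24 to 10.1 CPM in knockout mice (n = 8 each). All 8 knockout libraries lay below the Tln2-null mean of 10.4 CPM, which was raised by Tln2-null replicate 2 at 19.7 CPM. All but 1 of the 8 also lay within the Tln2-null range. The log2 fold change, knockout minus Tln2-null, was -0.39 ± 0.22 (SE; 95% interval -0.85 to 0.07; edgeR p = 0.0908, adjusted p = 0.935), and the exact permutation of mice within sex gave p = 0.216. Without Tln2-null replicate 2 the value was -0.15 ± 0.17.

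Agtr1a, the receptor gene, ran from 35.4 over 56.6 to 61.2 CPM in Tln2-null and from 41.6 over 60.6 to 74.4 CPM in knockout mice. The lowest library of all was Tln2-null replicate 4, and the highest was knockout replicate 8. The log2 fold change was 0.10 ± 0.11 (95% interval -0.14 to 0.33; edgeR adjusted p = 0.948). This interval spans folds from 0.911 to 1.26. It was 0.04 ± 0.10 with Tln2-null replicate 4 left out, 0.06 with knockout replicate 7 left out and 0.15 with knockout replicate 3 left out.

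Ace ran from 79.5 over 117.6 to 127.9 CPM in Tln2-null and from 83.5 over 95.6 to 133.1 CPM in knockout mice. The median was lower in knockout mice, while their highest library exceeded every Tln2-null library. The log2 fold change was -0.12 ± 0.11 (95% interval -0.35 to 0.11; edgeR adjusted p = 0.946), with values of -0.06 ± 0.11 without knockout replicate 4 and -0.18 without knockout replicate 3. Ace shares its locus with the antisense gene Gm11651, which measured 0.024 CPM.

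Neither aminopeptidase gene passed. Enpep ran from 14.5 over 16.8 to 19.4 CPM in Tln2-null and from 14.3 over 15.1 to 28.8 CPM in knockout mice, and knockout replicate 8 alone lay above 16.7 CPM in its group. Its log2 fold change was 0.03 ± 0.13 (edgeR adjusted p = 0.994). Without knockout replicate 8 it was -0.11 ± 0.07, so the sign rested on that library. Anpep ran from 12.8 over 14.9 to 16.8 CPM in Tln2-null and from 9.98 over 12.8 to 18.1 CPM in knockout mice. The 2 lowest libraries were knockout replicates 6 and 7, at 9.98 and 10.5 CPM, and the highest was knockout replicate 2. The log2 fold change was -0.17 ± 0.10 (95% interval -0.39 to 0.04; edgeR adjusted p = 0.935), with 6 of 8 knockout libraries below the Tln2-null mean. Without the 4 females that carried Y-linked reads it was -0.035. That omission left knockout replicate 2, the highest library for Anpep, as the only knockout female.

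Atp6ap2 ran from 31.5 over 35.6 to 37.9 CPM in Tln2-null and from 30.2 over 33.7 to 39.1 CPM in knockout mice. Its log2 fold change was -0.06 ± 0.06, and the 95% interval of -0.18 to 0.05 was the narrowest of the 6 (edgeR adjusted p = 0.942). It is the gene for which these libraries set the tightest bound, a fold between 0.884 and 1.04.

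**Figure D2:**
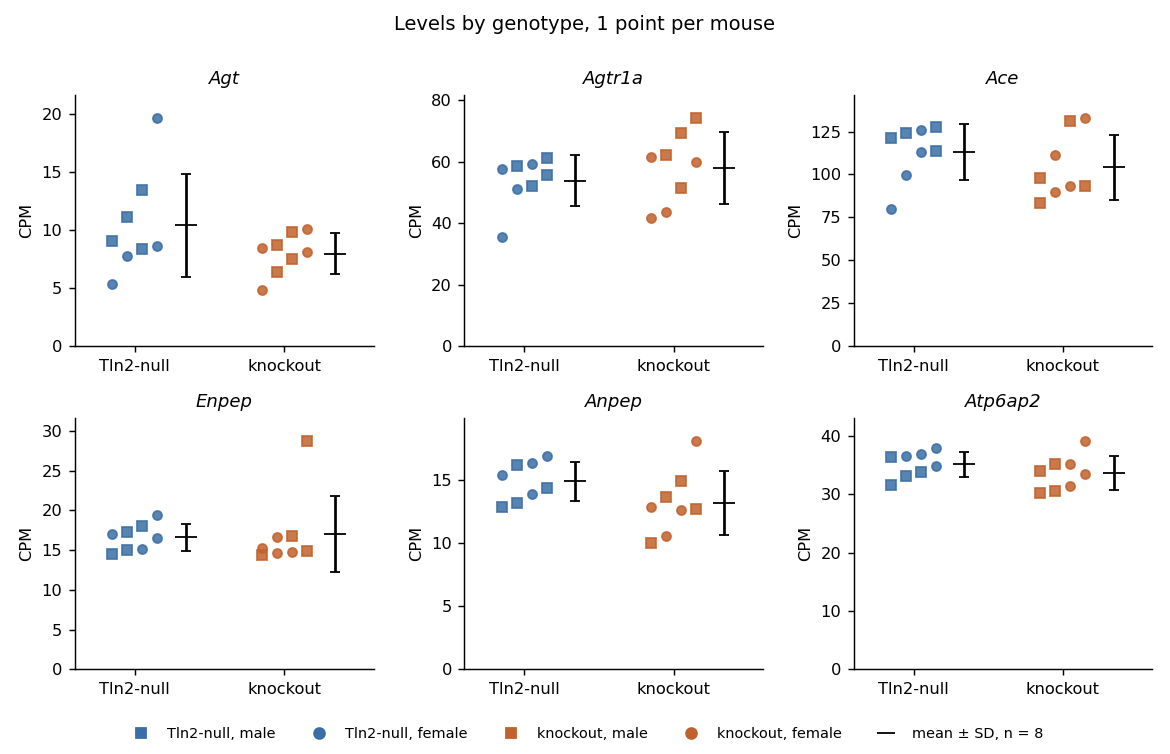
CPM of each gene in every mouse by genotype, squares for males and circles for females, with the mean and SD of 8 mice beside each group. The groups overlap in all panels. Single libraries were set apart by Dixon's rule, given further on, for Agtr1a (Tln2-null, 35.4 CPM) and Enpep (knockout, 28.8 CPM). The highest Agt library (Tln2-null, 19.7 CPM) was not.

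Between the sexes, 0 of the 6 genes passed after adjustment, against 0.0871% of all genes (12 of 13775). At an unadjusted p under 0.05, 1 of 6 did, against 3.69% of all genes, and DESeq2 called 0 of 6 after adjustment. That gene was Agtr1a, which ran from 51.4 over 59.9 to 74.4 CPM in males and from 35.4 over 54.3 to 61.5 CPM in females (n = 8 each). The log2 fold change, female minus male, was -0.24 ± 0.11 (edgeR p = 0.044, adjusted p = 1), and the exact permutation within genotype gave p = 0.0657. Without the 4 females that carried Y-linked reads it was -0.19 ± 0.12.

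Atp6ap2 lies on the X chromosome. It ran from 30.2 over 33.5 to 36.3 CPM in males and from 31.4 over 35.9 to 39.1 CPM in females, and 7 of 8 females lay above the male mean. The log2 fold change was 0.11 ± 0.06 (edgeR adjusted p = 1). The exact permutation gave p = 0.0408, or 0.197 after adjustment over the 6 exact tests. The other 4 genes differed between sexes by -0.10 to 0.12 on the log2 scale, each with a 95% interval that included 0.

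**Figure D3:**
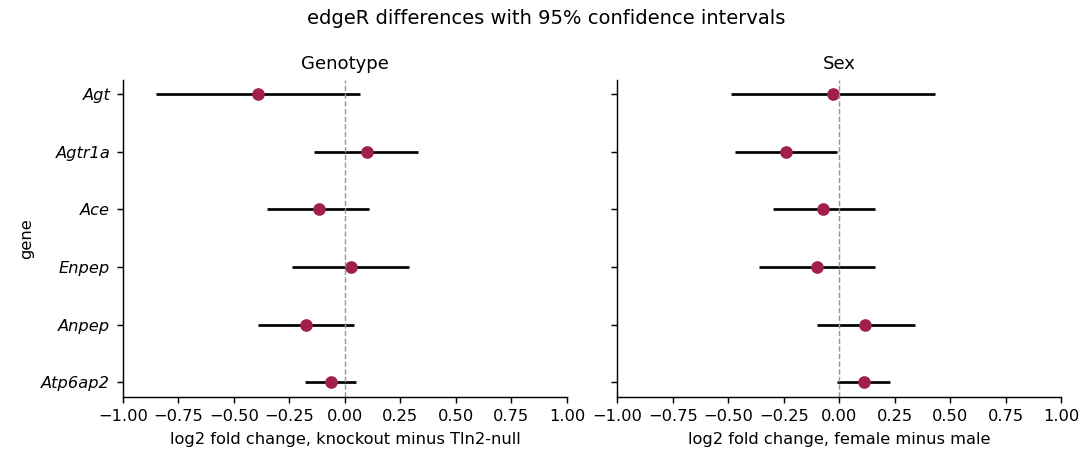
Log2 fold changes from edgeR (points) with 95% confidence intervals (lines) for knockout minus Tln2-null and for female minus male. All genotype intervals include 0, and among the sex intervals that of Agtr1a ends just below 0.

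The genotype difference did not pass a test of dependence on sex for any of the 6 genes (0 of 6, with 0% of all genes called and 4.27% at an unadjusted p under 0.05, where 0 of 6 stood). Ace gave -0.26 ± 0.15 in males and 0.03 ± 0.15 in females, a difference of 0.29 ± 0.21 (edgeR adjusted p = 0.98). Enpep gave 0.20 ± 0.17 and -0.15 ± 0.17, a difference of -0.34 ± 0.24 (edgeR adjusted p = 0.98). Without Tln2-null replicate 8 and knockout replicate 8 the difference for Enpep was 0.01.

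The receptor and the converting enzyme had slopes of opposite sign along the number in the sample titles, from 1 to 18, and neither passed after adjustment. The sources used here do not say what that number stands for. Both genotypes and sexes are spread over it, but Tln2-null mice carry numbers 1 to 14 and knockout mice 3 to 18. Genotype and number are thus not fully separate. Agtr1a measured 35.4 to 55.6 CPM in the 7 libraries numbered 8 or lower (4 Tln2-null, 3 knockout). In the 9 numbered 9 or higher it measured 57.6 to 74.4 CPM, and the ranges did not overlap. This division was chosen after the values were seen, and how many of all genes separate at it was not counted. As a linear term beside genotype and sex, the slope was 0.03 ± 0.01 log2 units per number (edgeR adjusted p = 0.0637). Ace measured 99.8 to 133.1 CPM in the first set and 79.5 to 127.9 CPM in the second, with a slope of -0.02 ± 0.01 (edgeR adjusted p = 0.166). Thus 0 of 6 genes passed, against 4.32% of all genes, and 2 of 6 had an unadjusted p under 0.05, against 22.6% of all genes. With the number as a covariate, the genotype difference was -0.02 for Agtr1a and -0.06 for Enpep, in both cases with the sign turned.

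**Figure D4:**
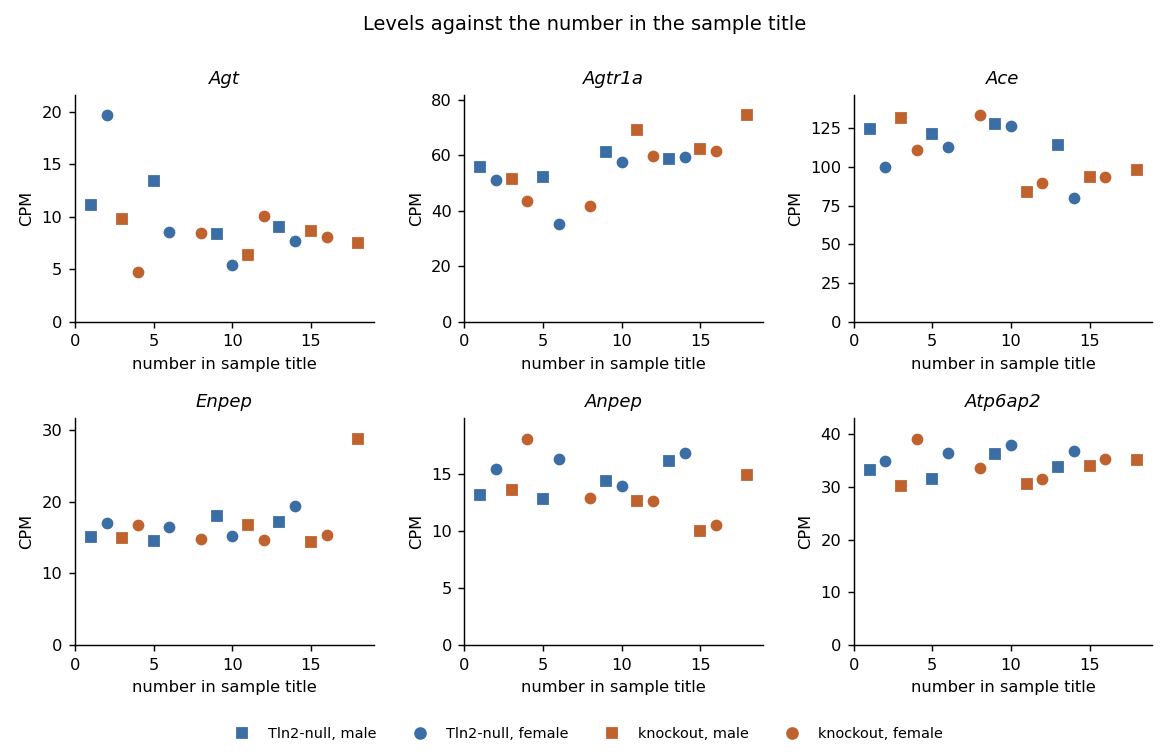
CPM of each gene against the number in the sample title, 1 point per mouse, coloured by genotype and shaped by sex. Agtr1a points lie at 55.6 CPM or less up to number 8 and at 57.6 CPM or more from number 9. That division was chosen after the values were seen. Ace is mostly lower at high numbers, and Atp6ap2 shows no such step.

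Across mice of the same genotype and sex, the precursor and the prorenin receptor gene had a negative correlation, the lowest in p of the pairs, which did not pass after adjustment. Correlations were computed on log2 CPM with the 4 group means removed, for 15 pairs, with permutation within groups. Agt and Atp6ap2 had r = -0.63 and rho = -0.64 (n = 16; permutation p = 0.00338 and 0.012; adjusted p = 0.0507 and 0.09), and r = -0.71 without the 2 libraries farthest from the median in Agt. The 2 libraries lowest in Agt, knockout replicate 2 at 4.79 and Tln2-null replicate 6 at 5.38 CPM, were the 2 highest in Atp6ap2, at 39.1 and 37.9 CPM. Knockout replicate 4 was an exception, low in both at 6.35 and 30.6 CPM. With each library left out in turn, r ran from -0.73 without knockout replicate 4 to -0.51 without knockout replicate 2 (permutation adjusted p = 0.00015 and 0.267). With the title number removed as a linear term r was -0.59 (adjusted p = 0.17), and with no group means removed it was -0.44 (adjusted p = 0.342). A division by genotype was added after the data were seen. In it, r within the Tln2-null mice was -0.76 and rho -0.95 (n = 8, permutation adjusted p = 0.0273 for each). The unadjusted permutation p of 0.00182 for each was about the lowest that exchanges within 4 males and within 4 females can give. Within the knockout mice r was -0.67 and rho -0.74 (n = 8, permutation adjusted p = 0.561 and 0.469), and the difference between genotypes was not tested. The promoter windows of the pair, printed above, share no matched motif.

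Agtr1a and Ace also had r = -0.63, with rho = -0.70 (n = 16; permutation p = 0.05 and 0.0262; adjusted p = 0.188 and 0.131), and r = -0.55 without the 2 farthest libraries. Knockout replicate 3 held the highest Ace at 133.1 CPM beside an Agtr1a of 41.6 CPM, the lowest of its group. With the title number removed as a linear term, r was -0.42 (adjusted p = 0.618).

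Enpep and Anpep, the consecutive aminopeptidases, had the highest positive value, r = 0.58 and rho = 0.67 (n = 16; permutation p = 0.0263 and 0.00973; adjusted p = 0.188 and 0.09), and r = 0.43 without the 2 farthest libraries. Knockout replicate 6 was lowest in both, at 14.3 and 9.98 CPM. Tln2-null replicate 8 was the highest of its group in both, at 19.4 and 16.8 CPM. Their windows differ in the motifs matched, a TATA and a CCAAT match for Enpep and GC boxes for Anpep. In all, 0 of 15 pairs passed after adjustment over the 15 pairs.

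**Figure D5:**
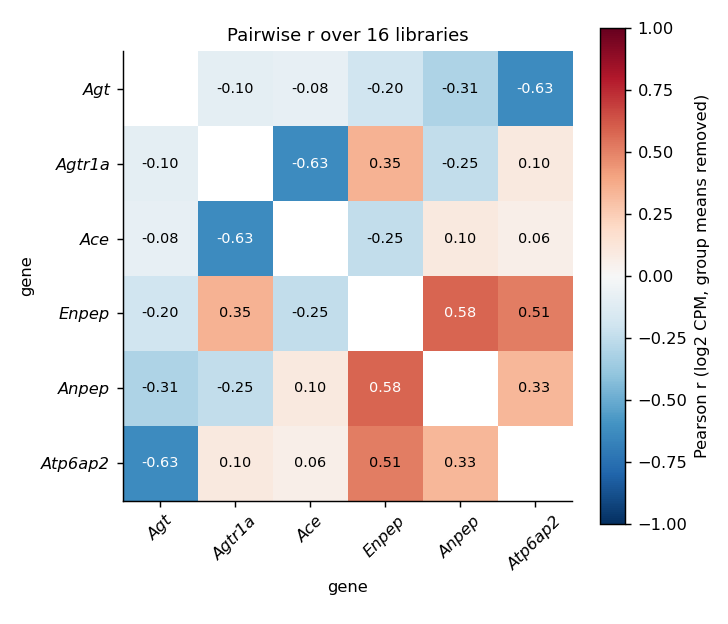
Pearson r between the 6 genes over 16 libraries, from log2 CPM with the mean of each genotype and sex removed. The values of -0.63 (Agt with Atp6ap2, Agtr1a with Ace) and 0.58 (Enpep with Anpep) are the largest in each direction.

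Of 12009 genes at 2 CPM or more, those most like each gene over the 16 libraries are given as a description, with Pearson r. Picking the highest of 12009 values from 16 libraries favours high r in itself, and no p was computed. Anpep was most like Col6a3 (r = 0.92), Sh3pxd2b (0.91) and Col4a2 (0.90), genes of collagens VI and IV and of a podosome adaptor. Enpep was most like Igsf10 (0.90), the clock transcription factor gene Arntl (0.87) and the metalloprotease gene Adam19 (0.86). In knockout replicate 8 Enpep stood at 28.8, Arntl at 27.1 and Adam19 at 97.9 CPM, the highest library for Enpep and Adam19. Arntl was highest in Tln2-null replicate 8, at 28.4 CPM. Without the 2 libraries of high Arntl, r with Enpep was 0.75 for Arntl and 0.74 for Adam19.

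Ace was most like Prg4 (r = 0.90), which encodes lubricin, Masp1 (0.88), a protease of the lectin pathway of complement, and Ube2q1 (0.87), a ubiquitin-conjugating enzyme gene. Agtr1a was most like Gpn3 (0.89), Ccdc86 (0.88) and Cep85 (0.86). With the title number removed as well, these 3 values were 0.81, 0.76 and 0.73. Agt was most like Ints6 (0.85), Mrpl55 (0.82) and Rap1gap2 (0.81), where r with Ints6 was 0.65 without the 2 libraries farthest in Agt. Atp6ap2 was most like Ifi211 (0.93), Fmnl2 (0.90) and Praf2 (0.88). These genes were measured in the same libraries as the gene they resemble. The part of library depth and tissue makeup in these values was not tested.

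Relations to cell types were examined with marker lists, each as a mean log2 CPM with group means removed. Of 66 relations between the 6 genes and 11 lists, 0 passed after adjustment over the 66. The largest was Anpep with the endothelial list (r = 0.82, rho = 0.78; n = 16; permutation p = 0.00169 and 0.00132; adjusted p = 0.112 and 0.0871; r = 0.70 without the 2 farthest libraries). Anpep also had r = 0.72 with the fibroblast list and 0.67 with the macrophage list (permutation adjusted p = 0.177 each, n = 16). Its other values included 0.63 with the pericyte, 0.54 with the smooth muscle and -0.56 with the cardiomyocyte list (permutation adjusted p = 0.312, 0.252 and 0.457). Ace had r = 0.04 with the endothelial list (permutation adjusted p = 0.973). Enpep had r = 0.69 with the mast cell list and Agtr1a 0.67 with the lymphocyte list (permutation adjusted p = 0.197 each). Summed endothelial markers ran from 1261 to 1566 CPM in Tln2-null and from 1186 to 1668 CPM in knockout mice, and summed fibroblast markers from 1379 to 2390 and from 1192 to 2080 CPM. None of the 8 markers of either list was at 0 in any library. All 8 fibroblast markers lay below 0 for knockout minus Tln2-null (median log2 fold change -0.43), none called, and their part in the value of Anpep was not tested. Ace had r = -0.72 with the mast cell list, -0.62 with the lymphocyte list and -0.59 with the Schwann cell list. The permutation adjusted p was 0.197 for each. Only 5 of 7 mast cell and 5 of 7 lymphocyte markers were tested. Summed mast cell markers ran from 9.32 to 19.7 CPM in Tln2-null and from 8.39 to 18.8 CPM in knockout mice. Of the 7, 2 were at 0 in a library. Summed lymphocyte markers ran from 2.24 to 5.30 and from 1.73 to 6.52 CPM. Along the title number, 4 of 5 mast cell and 5 of 5 lymphocyte markers had slopes above 0. The part of that number was not tested.

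Relations to genes known to respond to AngII and to V-ATPase genes were examined in the same way. Of 12 relations to 2 further lists, chosen after the data were seen, 0 passed. Anpep with the AngII-responsive list had r = 0.74 and rho = 0.69 (n = 16, permutation p = 0.00582 and 0.0112, adjusted p = 0.0698 and 0.134). That list shares Col1a1 and Col3a1 with the fibroblast list and Acta2 with the smooth muscle list. This value is therefore not separate from those of Anpep with these marker lists. Atp6ap2 had r = -0.26 with the other subunits of the V-ATPase (adjusted p = 0.395). Agtr1a had r = -0.19 with the AngII-responsive list (adjusted p = 0.542).

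Among the other genes of the pathway, 0 passed between genotypes. In the peptidase list, 14 of 20 genes were tested, 10 above 0 and 4 below, with a median log2 fold change of 0.06 against -0.0027 over all genes. Dpp4, the dipeptidyl peptidase gene, had the lowest p: it ran from 1.92 over 2.63 to 3.10 CPM in Tln2-null and from 2.75 over 3.80 to 5.02 CPM in knockout mice. Its log2 fold change was 0.56 ± 0.14 (edgeR adjusted p = 0.375), and the groups overlapped between 2.75 and 3.10 CPM. Mme, the gene of neprilysin, which cuts angiotensin I to angiotensin-(1-7), gave 0.37 ± 0.14 (adjusted p = 0.904).

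Of the 15 genes for receptors and their regulators, 12 were tested, 5 above 0 and 7 below, with a median of -0.01. The lowest p were those of Rgs5, a brake on G-protein signalling, at 0.13 ± 0.06, and the arrestin gene Arrb2, at -0.17 ± 0.10 (edgeR adjusted p = 0.935 for both). In the bradykinin list 3 of 9 genes were tested, and the carboxypeptidase genes Cpd and Cpm gave 0.09 ± 0.06 and 0.10 ± 0.09. In the aldosterone list 8 of 12 were tested. There Star, whose protein moves cholesterol into mitochondria, gave -0.63 ± 0.20 (edgeR adjusted p = 0.755) and Fkbp5, a glucocorticoid-responsive gene, -0.34 ± 0.28.

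The 15 V-ATPase genes had a median of -0.0018, with 7 above 0 and 8 below, and the lowest p belonged to Atp6v0e at -0.10 ± 0.07 and Atp6v1h at -0.09 ± 0.07. The 9 other aminopeptidases of the family of Enpep and Anpep had a median of -0.01, with Rnpepl1 at -0.08 ± 0.07 and Lnpep at 0.18 ± 0.15 the lowest in p. Of 20 AngII-responsive genes 19 were tested, 3 above 0 and 16 below, with a median of -0.27. Col1a1, a fibrillar collagen gene, gave -0.57 ± 0.21 (edgeR adjusted p = 0.823) and Nox4, an NADPH oxidase gene, -0.88 ± 0.36 (adjusted p = 0.926).

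Between the sexes 0 genes of these lists passed. The lowest p was that of Hsd11b1, which encodes an enzyme that activates glucocorticoids, at -0.71 ± 0.14 for female minus male (edgeR adjusted p = 0.0999). Mas1 gave -0.78 ± 0.27, Mme -0.42 ± 0.14, Lvrn, the gene of aminopeptidase Q, -1.22 ± 0.46, and the smooth muscle actin gene Acta2 0.52 ± 0.22 (adjusted p = 1 each). The difference between sexes in the genotype effect had its lowest p for Edn1, the endothelin gene, at -0.63 ± 0.23 (edgeR adjusted p = 0.98), and for Mas1 it was -1.13 ± 0.49. Along the title number 4 of the 78 distinct genes tested from these lists passed (5.13%), a share near the 4.32% of all genes: Rnpep, the gene of aminopeptidase B, and Fkbp5 fell, at slopes of -0.03 ± 0.01 and -0.09 ± 0.02 (edgeR adjusted p = 0.0482 and 0.0107). Rcan1, a calcineurin regulator, and Nppb, the natriuretic peptide gene, rose, at 0.07 ± 0.02 and 0.14 ± 0.04 (edgeR adjusted p = 0.0425 and 0.0477).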

How the data were processed

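Left ventricular total RNA was sequenced from 16 mice, extracted with TRIzol and a column kit and made into directional libraries, per the labels' protocols. The authors deposited whole read counts per gene symbol, and a second table of normalized signal per gene. Multiplying that deposited signal by a single size factor for each library returns the counts (100% of values to within 0.001). The submitters' processing notes name DRAGEN, DESeq2 and mm10. The sources used here do not give versions, annotation or strand setting, so reads of overlapping or near-identical genes cannot be separated.

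The 6 genes and the gene lists were chosen with earlier results of these data known. Replicates were numbered in record order. Counts were filtered by filterByExpr, scaled by TMM and tested with edgeR 4.0.16 (R 4.3.3), genotype and sex as terms, called at an adjusted p under 0.05 over 13775 genes. SE was worked back from the F statistic of each test. Log2 CPM used a prior count of 2. Exact two-sided permutations exchanged mice within sex or genotype (4900 exchanges). Correlations used 100000 two-sided permutations within groups and numpy 2.4.6. DESeq2 1.42.0 and limma 3.58.1 were alternatives, beside other filters and scalings, the title number as a covariate, and libraries left out. Fits were tested on simulated data.

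Named genes were the 6 genes, pathway genes that passed or else the 2 of lowest p per list (not all of these are printed), fixed pathway levels (1 is not reported here), the 3 genes most alike per gene, and both talins. Of these genes, 1 promoter was not matched.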

Additional observations from a re-analysis of the deposited data

Results flagged for a closer look

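In groups of 4 or 8 mice, a library was set apart where its gap to the nearest other exceeded Dixon's 95% critical share of the group's range. Of 36 groups tested, 3 met this, where chance gives about 5%. Agtr1a in Tln2-null replicate 4 measured 35.42 CPM, below the 51.04 to 61.18 CPM of the other 7 (gap 0.606 of the range, critical 0.526). Enpep in knockout replicate 8 measured 28.75 CPM, above 14.33 to 16.73 CPM in the other 7 knockout mice (gap 0.834, critical 0.526). The same library stood apart at 28.75 CPM among the 4 knockout males (gap 0.834, critical 0.829).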

How the results depend on the processing

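None of the 6 genes passed for genotype, sex or their interaction under any setting, and the smallest adjusted p over these was 0.446, 0.792 and 0.672. Of 156 alternative values for genotype 149 kept their sign, of 150 for sex 140, and of 144 for the interaction 122. Agtr1a (0.10) and Enpep (0.03) for genotype turned to -0.0167 and -0.0603 with the title number as a covariate, and Atp6ap2 for the interaction to 0.0006. With limma-voom, Enpep for genotype was -0.055 and Agt for the interaction 0.018. Without Tln2-null replicate 8 and knockout replicate 8, Enpep was -0.0767 for genotype and 0.0028 for sex, and Agt 0.0161 for sex. For the interaction the same omission gave 0.0082 for Agtr1a, 0.0351 for Atp6ap2, 0.0077 for Enpep and 0.0669 for Anpep. Without the 4 females with Y-linked reads, an omission chosen after seeing the data, Enpep was 0.007 for sex. The interaction was then 0.1493 for Atp6ap2 and 0.3768 for Anpep. This omission left knockout replicate 2 as the only knockout female. That library was the highest of all in Atp6ap2 and Anpep, so both interactions rest on it. Leaving out single libraries gave -0.1134 to 0.0686 for Enpep by genotype, -0.28 to 0.074 for Agt by sex and -0.14 to 0.0396 for Enpep by sex. For the interaction it gave -0.25 to 0.50 for Agt, -0.0689 to 0.0331 for Atp6ap2 and -0.22 to 0.0456 for Anpep. Why signs turned was not tested.

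Over all genes, the count for genotype was 0 with edgeR but 1 with no filter, 17 with DESeq2, 11 with limma-voom, 5 without Tln2-null replicate 8 and knockout replicate 8, and 0 to 7 with single libraries left out (7 without knockout replicate 8). For sex it was 12, and 21 with DESeq2. The cause was not tested. Pairs that passed numbered 0 to 3 with single libraries left out (chosen after seeing the data): 1 without knockout replicate 4, and without knockout replicate 6 the 3 pairs Agt and Atp6ap2, Atp6ap2 and Enpep, and Enpep and Anpep. No paired analysis was possible because replicate numbers were assigned in record order and pair nothing. Depth limits Agt most, whose lowest library held 84 counts.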
